A study of Mus musculus with 6 samples.

Results

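Immunoglobulin and B lineage genes were examined in RNA from tumors of HCA-1, a murine hepatocellular carcinoma line. The 9 genes were taken by symbol from the 55536 genes of the count table and fall into transcripts of antibody secretion (Igkc, Ighm, Igha, Ighg2c, Jchain and Mzb1) and surface markers of B cells (Cd79a, Cd79b and Ms4a1). They were chosen by their log2 fold changes and levels in this same contrast, control against GOx-DOX-LGP, so these values are given below as a description, without a test. HCA-1 cells had been placed in the liver of male C3H mice (C3H/HeNCrNarl in the study's methods) aged 6 to 8 weeks. Controls 5, 6 and 7 were untreated, and treated tumors 1, 2 and 5 came from mice given GOx-DOX-LGP intravenously, a lipid-gelatin-protamine nanogel that carries glucose oxidase in its core and doxorubicin in its shell. The labels name days 18, 19 and 20 for the injections while dating the transcriptome to day 17, with 3 h of circulation, and the study's methods harvest tumors dosed this way on the day after the last injection, so the interval between dose and harvest is not clear. Nothing in the labels says that libraries of the same number are related.

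Antibodies are built from heavy and light chains, whose variable ends are assembled from gene segments separately in each developing B cell and are then passed on to its descendants. A B cell carries the antibody on its surface, with the products of Cd79a and Cd79b as signalling partners, and Ms4a1 encodes CD20. When B cells mature into plasma cells, they lose much of this surface equipment and fill with transcripts of secreted antibody, with Jchain, which joins IgM and IgA into polymers, and with Mzb1, an endoplasmic reticulum protein that assists antibody assembly. In the liver such cells lie both in the tissue and in the blood that passes through it.

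Each library held 15529940 to 18401178 counts, and 3 counts, the floor used for detection, corresponded to 0.132 to 0.323 CPM, the counts scaled to a common library size. The libraries did not separate cleanly by group. Summed hepatocyte markers (8 genes, Alb among them) stood at 616, 113093 and 191221 CPM in controls 5, 6 and 7 and at 3261, 1282 and 1781 CPM in treated tumors 1, 2 and 5. Controls 6 and 7 thus held far more normal liver signal than control 5, and control 5 held the lowest of all. Summed leukocyte markers (6 genes) stood at 446, 291 and 173 CPM in the controls and at 444, 637 and 581 CPM in the treated tumors. For this reason results are given below with and without these libraries where they rest on them.

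The variable segments of the kappa light chain show how different the antibody transcripts of single tumors were, and the last 150 bases of the segment with the highest kappa count in each library are printed for that reason. Capitals mark the last cysteine codon in frame, which lies just before the junction with the joining segment. The sequences are from the GENCODE M21 transcripts of the GRCm38 mouse build, written 5′ to 3′ on the coding strand, and are reference sequences, not reads. Igkv10-96 led in control 5 (chr6:68631963-68632442, minus strand), Igkv4-68 in control 6 (chr6:69304834-69305405, minus strand) and Igkv6-23 in control 7 and in treated tumor 1 (chr6:70260409-70260955, minus strand). Igkv4-50 led in treated tumor 2 (chr6:69700767-69701287, minus strand) and Igkv6-25 in treated tumor 5 (chr6:70215400-70215957, plus strand).
Igkv10-96: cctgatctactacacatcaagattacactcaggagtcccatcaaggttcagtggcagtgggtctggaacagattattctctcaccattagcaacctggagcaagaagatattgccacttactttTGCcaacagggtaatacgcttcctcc
Igkv4-68: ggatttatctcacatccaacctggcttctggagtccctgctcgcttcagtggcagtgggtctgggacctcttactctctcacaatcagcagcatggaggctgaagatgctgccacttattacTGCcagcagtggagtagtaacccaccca
Igkv6-23: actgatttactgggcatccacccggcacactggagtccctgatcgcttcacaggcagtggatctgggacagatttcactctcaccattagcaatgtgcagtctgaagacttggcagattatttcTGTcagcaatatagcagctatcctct
Igkv4-50: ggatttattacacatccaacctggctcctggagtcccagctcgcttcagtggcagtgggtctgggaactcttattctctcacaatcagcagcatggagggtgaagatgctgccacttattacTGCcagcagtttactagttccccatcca
Igkv6-25: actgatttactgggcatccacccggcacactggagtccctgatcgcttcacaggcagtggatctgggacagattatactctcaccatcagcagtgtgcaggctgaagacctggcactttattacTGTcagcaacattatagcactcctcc
Aligned at the cysteine codon, Igkv4-68 and Igkv4-50 were identical at 137 of 150 positions (91.3%), and Igkv6-23 and Igkv6-25 at 134 of 150 (89.3%). All other pairs of these 5 segments were identical at 65.3 to 70.9% of positions. A short read can therefore be hard to place between close relatives. Of all stretches of 50 bases, 48.7% of those of Igkv4-68, 45.6% of Igkv6-25, 35.6% of Igkv6-23 and 32.6% of Igkv10-96 occur in another gene as well, against 2.31% of Igkv4-50.

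Among the members that passed the filter on low counts, the larger differences between the groups lay in the antibody transcripts. Igkc, the constant region of the kappa light chain, was the most abundant member, at 61.4, 461 and 444 CPM in controls 5, 6 and 7 and at 20.1, 21.7 and 28.3 CPM in treated tumors 1, 2 and 5. Every control lay above every treated tumor, and control 5 was 2.17 times the highest of them. The group means were 322 ± 226 and 23.4 ± 4.34 CPM (SD, n = 3 each), and the log2 fold change of the fit, GOx-DOX-LGP minus control, was -3.78 (SE 0.79). Igkc occupies chr6:70726435-70726966 (GRCm38, plus strand) and overlaps the noncoding gene Gm30211 on the same strand, which its reads may share.

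Jchain behaved most evenly within the treated group. It stood at 10.5, 72.8 and 98.5 CPM in controls 5, 6 and 7 and at 4.65, 4.41 and 5.1 CPM in treated tumors 1, 2 and 5. The groups did not overlap, the 3 treated tumors differed little among themselves, and the controls spanned a wide range with control 5 the lowest. The log2 fold change was -3.68 (SE 0.80), with group means of 60.6 ± 45.3 and 4.72 ± 0.35 CPM (SD, n = 3 each). Jchain lies at chr5:88519809-88527891 (minus strand), apart from the antibody loci, and shared no stretch of 50 bases with another gene.

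Ighg2c, the constant region of an IgG heavy chain (chr12:113285325-113288932, minus strand), stood at 20.5, 89 and 80.1 CPM in controls 5, 6 and 7 and at 1.73, 11.1 and 5.25 CPM in treated tumors 1, 2 and 5. The groups again did not overlap, and the treated tumors were more uneven here than for Igkc or Jchain. The log2 fold change was -3.39 (SE 0.86). The reference strain carries Ighg2c where many other strains carry Ighg2a, 5.49% of its stretches of 50 bases also occur in Ighg2b, and how the C3H transcripts align to it was not tested.

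Igha, the heavy chain of IgA, the antibody of mucosal surfaces (chr12:113254830-113260236, minus strand), stood at 5.31, 57.5 and 92.7 CPM in controls 5, 6 and 7 and at 5.68, 1.71 and 3.33 CPM in treated tumors 1, 2 and 5. Its log2 fold change, -3.85 (SE 1.06), was the most negative of the members, yet control 5 lay below treated tumor 1, so the groups overlapped. Ighm, the heavy chain of IgM and the first class a B cell makes (chr12:113418558-113422730, minus strand), stood at 12.7, 52.3 and 59 CPM in controls 5, 6 and 7 and at 12.2, 15.6 and 17.5 CPM in treated tumors 1, 2 and 5. Control 5 lay within the range of the treated tumors, and the log2 fold change was -1.45 (SE 0.57). Mzb1, on chromosome 18, had 7, 12 and 2 counts in controls 5, 6 and 7 and 3, 3 and 2 counts in treated tumors 1, 2 and 5. All treated tumors and control 7 were thus at or below the floor of 3 counts. Mzb1 did not pass the filter on low counts, and 53.5% of its stretches of 50 bases lie in SPATA24, which overlaps it on the same strand, so that no fold change is given.

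**Figure D1:**
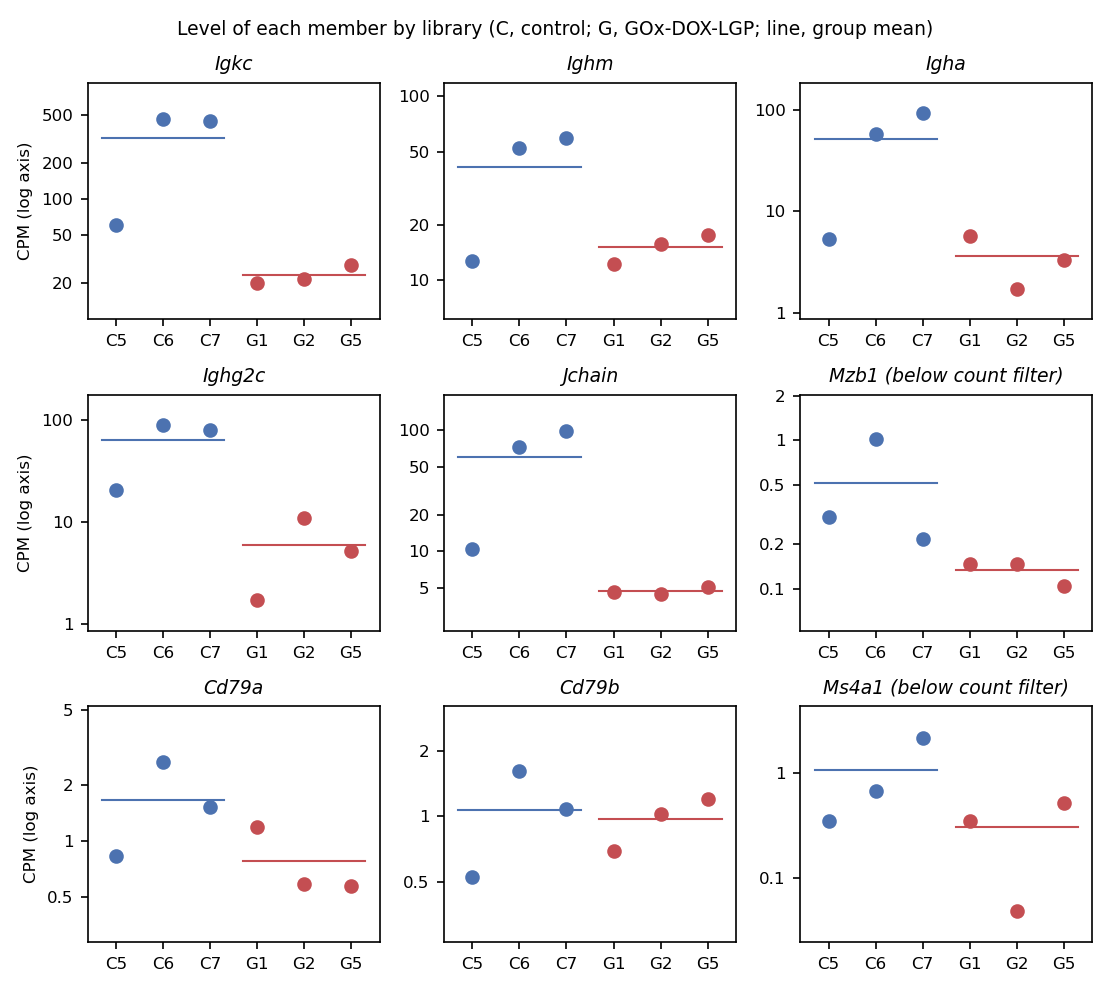
TMM-normalized CPM of the 9 members (log axes, each panel with its own range) in controls 5, 6 and 7 (C5 to C7, blue) and treated tumors 1, 2 and 5 (G1, G2 and G5, red), with 1 point for each library and a line at each group mean. Igkc, Ighg2c and Jchain separate the groups, control 5 lies below controls 6 and 7 in 8 of 9 members, and Mzb1 and Ms4a1 rest on 1 to 20 counts.

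The surface markers did not show the same separation. Cd79a, a signalling partner of surface antibody (chr7:24897381-24902197, plus strand), stood at 0.834, 2.63 and 1.51 CPM in controls 5, 6 and 7 and at 1.19, 0.588 and 0.572 CPM in treated tumors 1, 2 and 5. The groups overlapped through control 5, and the log2 fold change was -1.06 (SE 0.57). Cd79b, the other signalling partner (chr11:106311341-106314762, minus strand), stood at 0.526, 1.61 and 1.08 CPM in controls 5, 6 and 7 and at 0.692, 1.03 and 1.2 CPM in treated tumors 1, 2 and 5. Its log2 fold change, -0.11 (SE 0.51), was smaller than its error, and it was 0.53 when libraries were scaled by their totals and 0.09 when scaled by their upper quartile. Ms4a1 (chr19:11249675-11266241, minus strand) had 8, 8 and 20 counts in controls 5, 6 and 7 and 7, 1 and 10 counts in treated tumors 1, 2 and 5, overlapped between the groups and did not pass the filter on low counts. These values rest on 10 to 31 counts for Cd79a and Cd79b, so that a small difference was not detectable at this depth.

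Per kilobase of annotated exon, the mean level over the 6 libraries was 325 CPM for Igkc, 26.1 for Ighg2c, 15 for Ighm, 13 for Jchain and 10.4 for Igha. The surface markers lay far below, at 0.837 for Cd79a, 0.714 for Cd79b and 0.11 for Ms4a1, and Mzb1 lay among them at 0.266. In bulk tissue, fewer cells of a type and less RNA per cell cannot be told apart.

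Of the 9 members, 7 passed the filter, and the log2 fold change of each of these was negative, which holds for 48.9% of the 15374 genes tested, with 51.1% positive. In the edgeR quasi-likelihood fit with Benjamini-Hochberg adjustment over all of these genes, 0 members and 0 genes of any kind were called at 0.05 (smallest adjusted p = 0.247). At an unadjusted p under 0.05 there were 5 of the 7 members, all lower, beside 14.6% of all genes tested (2.87% were higher). The groups did not overlap for 3 of the 7, all lower, beside 8.31% of all genes (8.87% were higher without overlap). DESeq2 called 4 members lower (Igkc, Igha, Ighg2c and Jchain), beside 9.85% of the genes it tested. The rule chose the members with this contrast in view, so none of these counts bears on the members as a group. With the spread between these libraries, a count of 0 called genes does not show that genes did not change.

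Control 5 decided how far the groups stood apart. Without it, the edgeR fit called 5 members lower (Igkc, Ighm, Igha, Ighg2c and Jchain), but 25.5% of all genes tested were called lower and 22.2% higher as well. The log2 fold changes were then -4.24 for Igkc, -4.36 for Igha, -4.15 for Jchain, -3.77 for Ighg2c and -1.85 for Ighm. With controls 6 and 7 left out instead, a choice made after the data were seen, they were -1.38 for Igkc, -1.75 for Ighg2c, -1.14 for Jchain and -0.55 for Igha, and 0.26 for Ighm. The antibody difference was thus smaller against control 5 alone. Igkc, Ighg2c and Jchain in control 5 lay above every treated tumor, and Igha and Ighm did not. Across all genes tested, 6.47% had control 5 above all treated tumors and below controls 6 and 7. The part of normal liver in the differences was not tested.

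**Figure D2:**
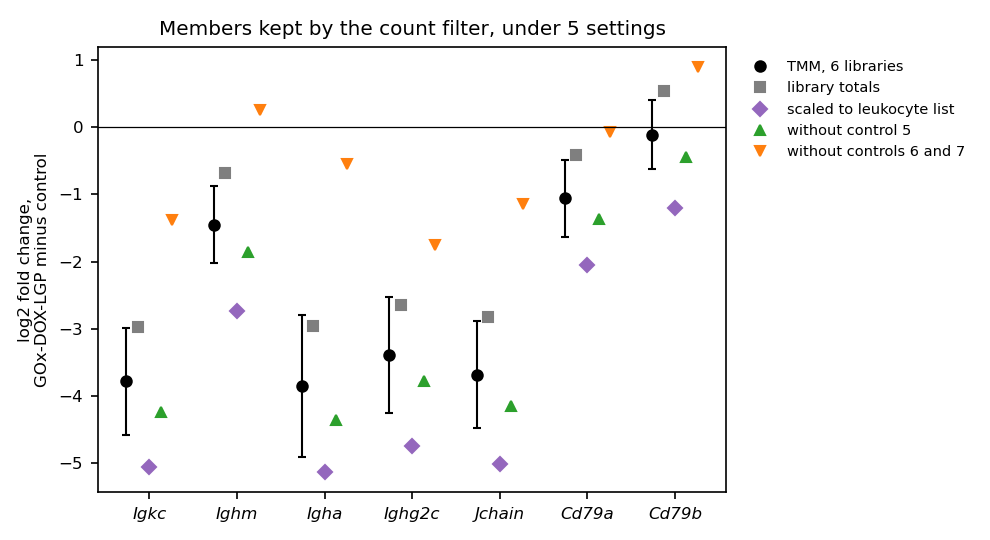
Log2 fold change (GOx-DOX-LGP minus control) of the 7 members that passed the count filter, under TMM scaling of all 6 libraries (black, bars are the SE), library totals, scaling to the leukocyte list, and after leaving out control 5 or controls 6 and 7. Igkc, Igha, Ighg2c and Jchain are below 0 under every setting drawn, whereas Ighm crosses 0 without controls 6 and 7 (0.26) and Cd79b under library totals (0.53) and without controls 6 and 7 (0.89).

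Other scalings shifted all genes together. The median log2 fold change of all genes was 0.02 with TMM, 0.51 with library totals, 0.19 with the upper quartile and -0.99 when libraries were scaled to the leukocyte list. Relative to leukocyte markers, Igkc had a log2 fold change of -5.06, Igha of -5.13, Jchain of -5.01, Ighg2c of -4.74 and Ighm of -2.74. Cd79a was then at -2.05 and Cd79b at -1.20. With library totals, these were -2.97 for Igkc, -2.96 for Igha, -2.83 for Jchain, -2.64 for Ighg2c, -0.68 for Ighm and -0.42 for Cd79a.

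A ratio within a library does not depend on such scaling. Summed counts of the 6 antibody members were 64.7, 149 and 164 times those of the 3 surface members in controls 5, 6 and 7, and 20, 32.8 and 26 times in treated tumors 1, 2 and 5. The groups did not overlap, and control 5 was the lowest control, at 64.7 against at most 32.8 in the treated tumors. The part of normal liver in this ratio was not tested. The mean log2 ratio was 6.86 ± 0.74 in controls and 4.69 ± 0.36 in treated tumors (SD, n = 3 each), a difference of -2.18. With controls 6 and 7 left out it was -1.33. Jchain and Mzb1 together, which are not antibody chains themselves, were 6.31, 15 and 20.8 times the surface members in controls 5, 6 and 7 and 2.16, 2.74 and 2.27 times in treated tumors 1, 2 and 5. The summed surface members numbered 39, 58 and 44 counts in the controls and 45, 34 and 44 counts in the treated tumors. Scaled between libraries, they were not constant. They summed to 1.71, 4.92 and 4.73 CPM in controls 5, 6 and 7 and to 2.22, 1.67 and 2.29 CPM in treated tumors 1, 2 and 5.

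**Figure D3:**
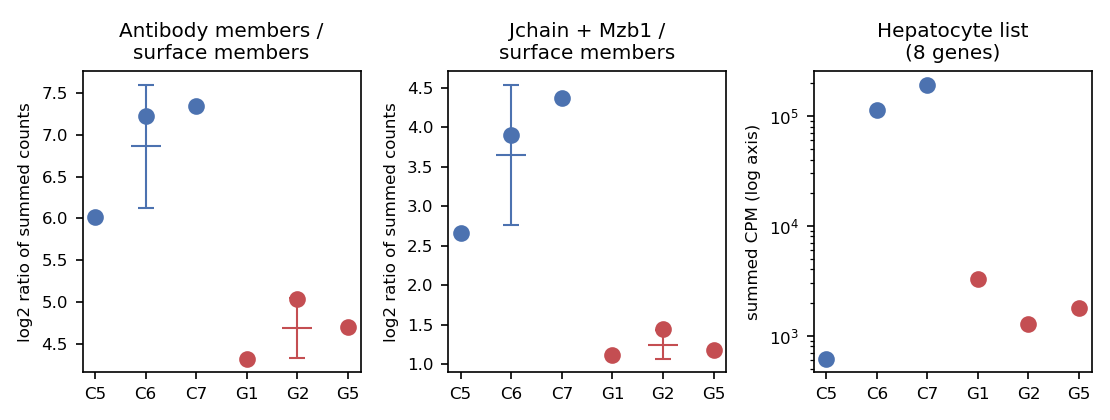
Log2 ratio of summed counts of the antibody members (left) and of Jchain plus Mzb1 (middle) to the 3 surface members, and summed CPM of the 8 hepatocyte markers (right, log axis), with 1 point for each library (C, control, blue; G, GOx-DOX-LGP, red); bars are the group mean and SD. Both ratios separate the groups, with control 5 the lowest control. In the hepatocyte panel control 5 (616 CPM) lies below every treated tumor.

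Set against the leukocyte markers, the members of each kind showed how much control 5 differed from the other controls. Antibody members had 0.249, 2.52 and 4.47 counts for each leukocyte count in controls 5, 6 and 7, and 0.1, 0.0859 and 0.103 in treated tumors 1, 2 and 5. Surface members had 3.84, 16.9 and 27.4 counts for each 1000 leukocyte counts in controls 5, 6 and 7, and 5.01, 2.62 and 3.94 in treated tumors 1, 2 and 5. For the antibody members control 5 lay above all treated tumors, and for the surface members it lay within their range.

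The mix of heavy chain classes also differed. Ighm made up 17.8% of heavy chain constant region counts in control 5 (95% Wilson interval 16 to 19.7%), 20% in control 6 (18.6 to 21.5%) and 22.4% in control 7 (20.8 to 24.1%). In treated tumors 1, 2 and 5 it made up 37% (33.5 to 40.8%), 46.5% (42.8 to 50.2%) and 50.3% (46.5 to 54.1%). The groups did not overlap, all controls lay close together, and the mean share was 20.1 ± 2.29% in controls and 44.6 ± 6.82% in treated tumors (SD, n = 3 each). For each count of a switched class (IgG, IgA or IgE) there were 0.218, 0.255 and 0.293 Ighm counts in controls 5, 6 and 7, and 0.62, 0.881 and 1.04 in treated tumors 1, 2 and 5. Ighm itself was not higher in mean CPM in the treated tumors (15.1, against 41.3 in the controls). The switched classes together had 324 to 397 raw counts in the treated tumors against 1328 to 2421 in the controls. The counts do not separate membrane from secreted forms of Ighm.

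The switched classes had no common order. Igha made up 7.43, 22 and 35.2% of heavy chain counts in controls 5, 6 and 7 and 17.3, 5.12 and 9.58% in treated tumors 1, 2 and 5. Ighg2c made up 28.7, 34.1 and 30.4% in controls 5, 6 and 7 and 5.27, 33.2 and 15.1% in treated tumors 1, 2 and 5. Ighg1, another IgG class, made up 24.4% in control 5 but 2.63 and 1.02% in controls 6 and 7, and 4.97, 5.41 and 2.25% in treated tumors 1, 2 and 5. Control 5 was thus rich in IgG1 and controls 6 and 7 in IgA, and these shares overlapped between the groups. Ighg2b, a further IgG class, made up 17.7, 16.9 and 9.64% in controls 5, 6 and 7 and 28.8, 8.04 and 19.3% in treated tumors 1, 2 and 5. The mean share over the libraries of a group was 1.15 and 1.7% for Ighd, 1.87 and 2% for Ighg3 and 0.225 and 0.248% for Ighe in control and treated tumors. Lambda light chains made up 2.64, 1.47 and 1.22% of light chain constant region counts in controls 5, 6 and 7 and 3.33, 3.06 and 4.9% in treated tumors 1, 2 and 5, on 14 to 81 lambda counts a library. The lambda shares did not overlap between the groups. The interval of control 5 (1.93 to 3.61%), however, overlapped those of treated tumors 1 (1.99 to 5.5%), 2 (1.83 to 5.08%) and 5 (3.41 to 6.98%). All intervals cover counting error only.

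**Figure D4:**
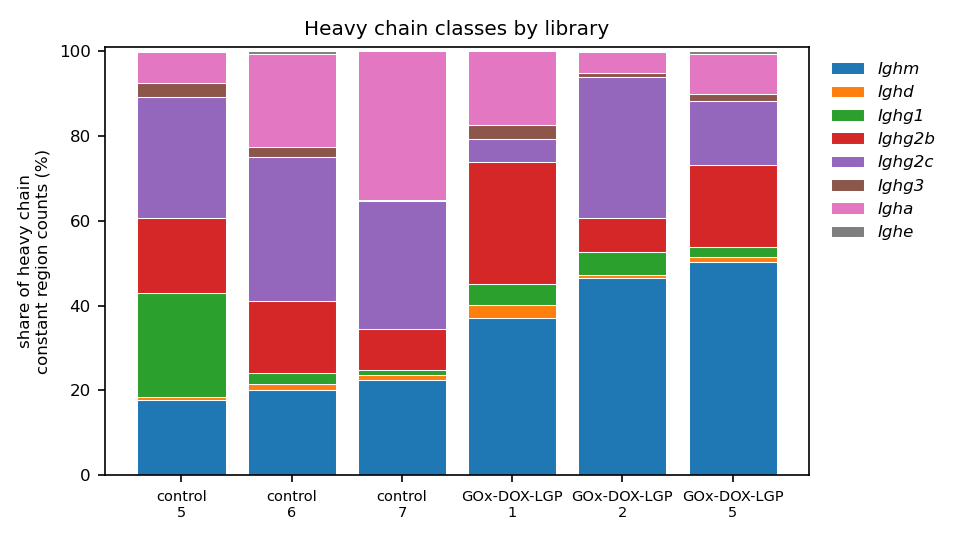
Share of each heavy chain class in the summed heavy chain constant region counts (%), stacked for each of the 6 libraries. Ighm (blue, bottom) is 17.8 to 22.4% in the controls and 37 to 50.3% in the treated tumors, while Ighg1 (green) is prominent in control 5 (24.4%).

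The variable segments, which the choice of members did not use by name, gave a further view of the same transcripts. Counts were assigned by reference names, and how the segments of C3H mice, which may differ from those of the reference strain, align to them was not tested. Of 348 genes named as Ighv, Igkv or Iglv segments (130 of them annotated as pseudogenes), 33, 32 and 24 had at least 3 counts in controls 5, 6 and 7, and 21, 15 and 16 in treated tumors 1, 2 and 5. Their summed counts were 1043, 2280 and 2098 in controls 5, 6 and 7 and 220, 336 and 258 in treated tumors 1, 2 and 5. Fewer segments were detected where fewer counts fell on them, so the number of segments is not a measure of diversity apart from depth. All immunoglobulin genes, constant and variable, took 0.0223, 0.0697 and 0.0533% of all counts in controls 5, 6 and 7 and 0.00798, 0.00876 and 0.00965% in treated tumors 1, 2 and 5.

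Single segments dominated in some tumors, and 5 different ones led in the 6 libraries. The leading segment held 23.4% of segment counts in control 5 (Igkv10-96; 95% Wilson interval 20.9 to 26.1%), 33.1% in control 6 (Igkv4-68; 31.2 to 35.1%) and 43% in control 7 (Igkv6-23; 40.9 to 45.2%). In treated tumors 1, 2 and 5 it held 15% (Igkv6-23; 10.9 to 20.3%), 39.6% (Igkv4-50; 34.5 to 44.9%) and 21.3% (Ighv1-82; 16.8 to 26.7%). The leading shares of the groups overlapped. The 5 highest segments held 62.2, 76.5 and 89.4% of segment counts in controls 5, 6 and 7 and 43.2, 74.7 and 56.2% in treated tumors 1, 2 and 5.

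The 3 segments with the highest summed counts were uneven across the controls. Igkv6-23 had 64, 151 and 903 counts in controls 5, 6 and 7 and 33, 6 and 23 in treated tumors 1, 2 and 5. Igkv4-68 had 0, 755 and 386 counts in controls 5, 6 and 7 and 3, 3 and 1 in treated tumors 1, 2 and 5, and the 0 in control 5 allows a share of up to 0.288%. Igkv3-7 had 148, 229 and 0 counts in controls 5, 6 and 7 and 7, 3 and 6 in treated tumors 1, 2 and 5, and the 0 in control 7 allows a share of up to 0.143%. The share of Igkv6-23 was 6.14% in control 5 (4.83 to 7.76%) and 43% in control 7, so that the controls differed by more than counting error. treated tumor 2 was dominated by a kappa and a heavy chain segment that were nearly absent elsewhere, both named after their values were seen. Igkv4-50 had 133 counts there and 0 to 5 in every other library, and Ighv2-9 had 98 counts there and 0 to 17 in every other library. Ighv2-9 made up 73.7% (65.6 to 80.4%) of the heavy chain segment counts of that tumor. In control 7, Ighv10-3, also named after the fact, had 340 counts against 0 or 1 in every other library. Ighv1-82, the leading heavy chain segment of control 5 and of treated tumors 1 and 5, had 121, 8 and 2 counts in controls 5, 6 and 7 and 27, 7 and 55 in treated tumors 1, 2 and 5.

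**Figure D5:**
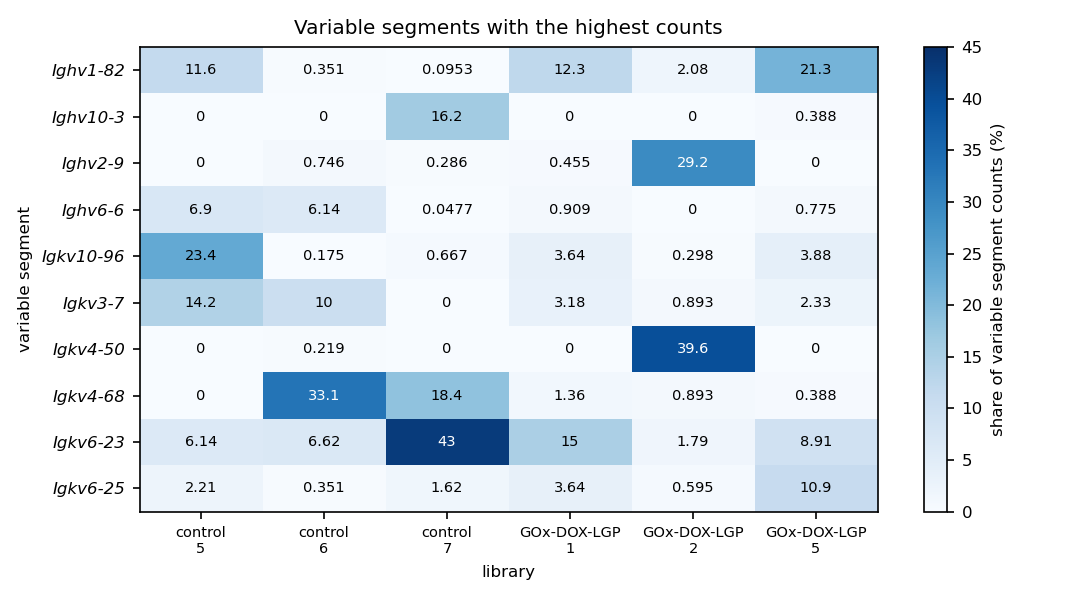
Share of each library's variable segment counts (%, number and shade) held by the segments with the highest counts and the leading segments of single libraries. Some segments are high in a single library, such as Igkv4-50 (39.6%) and Ighv2-9 (29.2%) in treated tumor 2, Ighv10-3 (16.2%) in control 7 and Igkv10-96 (23.4%) in control 5, while Igkv6-23 leads in both control 7 (43%) and treated tumor 1 (15%).

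Other genes of the B lineage, in 8 lists with 77 genes of which 56 passed the filter, were mixed. In the edgeR quasi-likelihood test, 0 of the 56 were called, and 33 had a positive and 23 a negative log2 fold change. An unadjusted p under 0.05 was found for 3 higher and 10 lower genes of the 56, beside 2.87% higher and 14.6% lower of all genes tested. DESeq2 called 7 of the 56 and 1 of the genes that did not pass the filter, all lower, beside 9.85% lower and 0.684% higher of the genes it tested. The median log2 fold change of the 56 was 0.32, against 0.02 for all genes.

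The other immunoglobulin constant region genes resembled the antibody members. All 6 that passed the filter, of 8, had negative log2 fold changes with a median of -2.34, and 4 did not overlap between the groups (Ighg1, Ighg2b, Iglc1 and Iglc2), beside 8.31% of all genes lower without overlap. Ighg1 stood at 17.4, 6.87 and 2.69 CPM in controls 5, 6 and 7 and at 1.63, 1.81 and 0.78 CPM in treated tumors 1, 2 and 5, so that here control 5 was the highest. Ighg2b stood at 12.7, 44.3 and 25.4 CPM in controls 5, 6 and 7 and at 9.44, 2.69 and 6.71 CPM in treated tumors 1, 2 and 5. Iglc1 and Iglc2, lambda light chain constant genes, had log2 fold changes of -2.66 (SE 0.74) and -2.53 (SE 0.68). Ighd, the class carried on naive B cells, had -2.15 (SE 0.91) and overlapped. Iglc3 and Ighe did not pass the filter.

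Genes of plasma cell identity and secretion were mixed. Of 13 genes 12 passed the filter, 6 with a positive and 6 with a negative log2 fold change and a median of -0.06. Ell2, an elongation factor that promotes secreted antibody transcripts, is named after its values were seen. It was the only 1 of the 12 genes without overlap between the groups, beside 8.31% of all genes lower without overlap. It stood at 59.4, 86.4 and 133 CPM in controls 5, 6 and 7 and at 49.8, 39 and 34.2 CPM in treated tumors 1, 2 and 5 (log2 fold change -1.18, SE 0.35). Xbp1, a transcription factor of the secretory pathway, stood at 168, 286 and 440 CPM in controls 5, 6 and 7 and at 180, 190 and 159 CPM in treated tumors 1, 2 and 5. Sdc1, which encodes the plasma cell marker CD138 but is also made by epithelial cells, had a log2 fold change of 0.69 (SE 0.41), and Txndc5 had -0.52 (SE 0.33). These genes are not restricted to plasma cells and stood far above Jchain in CPM in the treated tumors. Derl3, an endoplasmic reticulum degradation factor, had -1.69 (SE 0.98) on the log2 scale, and Pou2af1, a coactivator of antibody genes, had -1.42 (SE 0.71), both overlapping between the groups.

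Surface and signalling genes of B cells other than the members passed the filter in 11 of 19 cases, with 8 positive and 3 negative log2 fold changes and a median of 0.51. In this list 1 gene was higher and 1 lower without overlap between the groups, beside 8.87% and 8.31% of all genes. Bank1, a scaffold of the B cell receptor, stood at 2.54, 7.97 and 6.35 CPM in controls 5, 6 and 7 and at 1.83, 2.06 and 1.77 CPM in treated tumors 1, 2 and 5 (log2 fold change -1.57, SE 0.48). Fcrla had a log2 fold change of 1.00 (SE 0.71), Cd72 of 0.84 (SE 0.39), Cd180 of 0.51 (SE 0.35) and Blnk, an adaptor of the receptor, of -0.53 (SE 0.33).

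Among 7 transcription factors, all kept, 5 had a positive and 2 a negative log2 fold change, with a median of 0.30. Bach2, which holds B cells back from becoming plasma cells and also acts in T cells, stood at 2.76, 14 and 18.2 CPM in controls 5, 6 and 7 and at 1.93, 3.82 and 2.55 CPM in treated tumors 1, 2 and 5 (log2 fold change -2.06, SE 0.72). Ikzf3, a factor of lymphocytes in general, stood at 6.23, 6.53 and 4.63 CPM in controls 5, 6 and 7 and at 7.56, 9.7 and 11.4 CPM in treated tumors 1, 2 and 5, without overlap (log2 fold change 0.72, SE 0.29). Pou2f2 had 0.30 (SE 0.42). Of 6 genes of precursor B cells, only Dntt passed the filter, with a log2 fold change of -3.16 (SE 0.87), while Vpreb1 and Vpreb3 were at or below 0.215 CPM in every library. Of 5 germinal centre genes 3 passed, and Bcl6, which liver cells also express, had a log2 fold change of -1.14 (SE 0.35), S1pr2 of 0.05 (SE 0.25) and Gcsam of -0.05 (SE 0.51).

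Factors that act on B cells and plasma cells passed the filter in 8 of 11 cases, with 7 positive and 1 negative log2 fold change and a median of 0.86. Tnfsf13b, which encodes the survival factor BAFF, had a log2 fold change of 0.97 (SE 0.58), and Ltb, a lymphotoxin subunit, of 1.27 (SE 0.52). Cxcl12, a chemokine that retains plasma cells, stood at 20.6, 546 and 676 CPM in controls 5, 6 and 7 and at 32.1, 122 and 21.2 CPM in treated tumors 1, 2 and 5, so that control 5 was the lowest library. Its receptor Cxcr4 had a log2 fold change of 0.75 (SE 0.53). All 8 Fc receptors and transport genes passed the filter, 6 with a positive and 2 with a negative log2 fold change and a median of 0.90. Pigr, which carries IgA and IgM across epithelia, followed the hepatocyte markers, at 5.22, 1475 and 2448 CPM in controls 5, 6 and 7 and at 23.5, 12.4 and 18.5 CPM in treated tumors 1, 2 and 5. Fcgr2b and Fcgr3, receptors for IgG, had log2 fold changes of 0.81 (SE 0.40) and 1.27 (SE 0.57).

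Markers of other cells moved alongside the members in part. Kupffer cell markers (5 genes), which mark the resident macrophages of liver, summed to 28.4, 279 and 286 CPM in controls 5, 6 and 7 and to 51.9, 26.7 and 44.1 CPM in treated tumors 1, 2 and 5. Red cell markers (5 genes) summed to 13.2, 406 and 425 CPM in controls 5, 6 and 7 and to 24.2, 13.8 and 42 CPM in treated tumors 1, 2 and 5. Alas2 alone stood at 1.05, 95.1 and 185 CPM in controls 5, 6 and 7 and at 1.93, 1.08 and 1.3 CPM in treated tumors 1, 2 and 5. Its log2 fold change was -6.02, against -2.94 for Hba-a1 and -2.87 for Hbb-bs, so the sum may not follow blood alone. In both sums controls 6 and 7 were the highest, as for the summed antibody members, and control 5 lay below 2 or 3 of the treated tumors. Among the members, control 5 lay above every treated tumor for Igkc, Ighg2c, Jchain and Mzb1, the last on few counts. It did not for Ighm, Igha, Cd79a, Cd79b and Ms4a1. Summed T cell markers (8 genes) were lower in every control than in any treated tumor. They stood at 80.2, 52.6 and 27.9 CPM in controls 5, 6 and 7 and at 111, 118 and 163 CPM in treated tumors 1, 2 and 5. On their own, 7 of the 8 genes were higher in treated tumors without overlap, beside 8.87% of all genes tested. Of the plasmacytoid dendritic cell markers, a cell type that shares some genes with B cells, 4 of 6 passed the filter, with a median log2 fold change of 0.18. Macrophage markers (6 of 6 passed) had a median of 0.89 and neutrophil markers (3 of 5 passed) a median of 1.62. No marker of these lists was at 0 in all libraries, and the part of blood, of resident liver cells and of T cells in the antibody differences was not tested.

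The genes whose log2 CPM followed the mean of the antibody members most closely over the 6 libraries, among 14155 genes compared, were Cdc14b (Pearson r = 0.998), Erg (0.997), Fuz (0.995), Fendrr (0.994) and Tgfa (0.994). For the surface members they were Ankrd24 (0.998), Tuba8 (0.997), Gm10734 (0.994), Igsf5 (0.994) and Cd5l (0.993), the last a gene of Kupffer cells. These likenesses describe 6 libraries that fall into controls 6 and 7 and the rest, which many genes share.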

How the data were processed

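RNA was sequenced from 3 control and 3 GOx-DOX-LGP tumors. The authors deposited raw counts per gene, and a signal table of the same counts divided by one size factor per library (0.5321 to 1.3219); the deviation from a constant ratio was at most 5.04e-08%. The Supporting Information names TopHat and HTSeq, whereas the submitters' processing notes name Trimmomatic 0.38, HISAT2 2.1.0 and featureCounts 2.0.0, and these descriptions were not reconciled. Genome build, annotation release and strand setting are not given in the sources used here. All 55536 gene identifiers were found in GENCODE M21 (GRCm38), which supplied positions, exon lengths and sequences. Where reads of shared stretches or overlapping genes went is therefore unknown.

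The raw counts entered DESeq2 1.42.0 and edgeR 4.0.16 (limma 3.58.1) under R 4.3.3, and Python 3.11.15 with pandas 2.3.3 and matplotlib 3.10.9 was used for shares and figures. Genes were filtered with filterByExpr (15374 kept) and scaled with TMM, and the edgeR quasi-likelihood test had the group as its only term over the 6 libraries, and its p-values were adjusted by Benjamini-Hochberg over all genes kept, at 0.05. The fit was tested on simulated data. CPM uses TMM library sizes, and log2 CPM adds a prior count of 2. Intervals of shares are 95% Wilson intervals, and the detection floor is 3 counts; both cover counting error only. Totals per library were 15529940 to 18401178 counts. Groups and numbers come from the labels. Whether libraries of a group come from separate mice is not stated, so p-values measure the spread between these libraries.

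The 9 members and all gene lists were chosen with earlier results of these data known. Named genes are the members, the 3 genes of highest mean CPM and the 2 kept genes of largest absolute log2 fold change of each list, all heavy chain classes, the 3 variable segments of highest summed counts, and the 5 genes closest to the mean of the antibody and of the surface members in Pearson r (mean CPM of at least 1). Alternatives were DESeq2, its size factors in edgeR, library totals, the upper quartile, scaling to leukocyte markers, other filters, each library left out, and, chosen after seeing the data, controls 6 and 7 left out together and functional segments alone.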

Additional observations from a re-analysis of the deposited data

How the results depend on the processing

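No paired analysis was possible because nothing in the labels pairs a control with a treated tumor. Of the values of single members, 83 kept direction and side of the threshold over the alternatives, 9 passed the threshold and 6 changed direction. DESeq2 called 1739 of the 16513 genes it tested, 8 of them in the other B lineage lists. These 8 were all lower. Leaving out one library gave 0 to 7745 called genes and 0 to 34 in these lists, the upper values without control 5. In that setting 34 of 61 list genes were called, beside 7745 of 16249 of all genes tested. With controls 6 and 7 left out, Ighm was at 0.26 and Cd79b at 0.89 (log2 fold change), and the log2 ratio of antibody to surface members differed by -1.33, against -2.60 to -1.93 with one library left out. Cd79b was at 0.53 with library totals, at 0.09 with the upper quartile and at -0.44 to 0.32 with one library left out (0.32 without control 6, 0.10 without treated tumor 1). Differences in class shares (percentage points) with one library left out were -0.183 to 1.03 for Ighd, -9.29 to 2.38 for Ighg1 (2.38 without control 5), -1.09 to 9.27 for Ighg2b, -0.753 to 0.751 for Ighg3, -0.152 to 0.187 for Ighe, -17.9 to -4.04 for Igha, -20.9 to -6.9 for Ighg2c and 21.7 to 28.3 for Ighm. With controls 6 and 7 left out they were -20.2 for Ighg1, -1.13 for Ighg3 and 3.24 for Igha. The cause of these shifts was not tested. The median of the plasma cell list was 0.44 with library totals and -1.06 with leukocyte scaling, which shift all genes.

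Depth limits Mzb1, Ms4a1, Cd79a and Cd79b, which had 1 to 31 counts a library, and the segments of the treated tumors, with 220 to 336 counts in all.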

Other observations

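Segments prominent in a single tumor were found in both groups. Of the segments holding at least 1% of a library's segment counts, 7 of 17 in control 5, 2 of 9 in control 6 and 2 of 7 in control 7 reached 1% in no other library. In treated tumors 1, 2 and 5 these were 9 of 21, 4 of 11 and 7 of 16. In treated tumor 1, with 220 segment counts, 3 counts already reach 1.36%.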
